A study of Homo sapiens with 6 samples.

Results

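The genes described here were 10 regulators of the cell cycle, namely the E2F transcription factors E2F1, E2F2, E2F3, E2F4, E2F7 and E2F8, the pocket proteins RB1, RBL1 and RBL2, and the forkhead factor FOXM1. They were chosen by name and matched by Ensembl gene ID, and all 10 were found among the 62492 genes listed. All 10 also had enough reads to be among the 17000 genes tested. RNA was sequenced from HCT116 cells, a line of human colorectal carcinoma, that received either a control siRNA (siControl) or an siRNA against NONO (siNONO). Each siRNA was used at 20 nM with RNAiMAX, in 3 libraries per group that the labels number as Sets 1, 2 and 3. The sources call them biological replicates without saying what was separate. The p-values measure only the spread between these libraries that remains once the fit takes out differences between Sets. The siControl cells are labelled as WT and the siNONO cells as NONO knockdown, and both groups went through the same transfection. A single cell line and a single siNONO duplex were used, so that the loss of NONO and other effects of that duplex cannot be told apart. The time between transfection and harvest of these libraries is not given in the sources used here.

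E2F factors bind the promoters of genes needed to enter and carry out DNA replication, mostly as dimers with a DP partner. E2F1, E2F2 and E2F3 are known as activators and are held in check by RB1, the retinoblastoma protein, until cyclin-dependent kinases phosphorylate it. E2F4 acts mainly as a repressor together with RBL1 (p107) or RBL2 (p130), which join it and the MuvB core in the DREAM complex of resting cells. E2F7 and E2F8 are atypical members that repress E2F target genes without a DP partner or a pocket protein. FOXM1 drives the genes of G2 and mitosis, in part by joining MuvB. Several of these genes, such as E2F1, E2F2 and RBL1, are known E2F targets themselves.

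Promoter sequences are shown for 4 members that fell in siNONO and whose start site region holds an E2F word, and for E2F4, which was not called and holds none. They come from RefSeq on build GRCh38.p14, whereas the expression files use GRCh37, so these coordinates are not to be mixed with those of the genes. RefSeq promoters of 300 bases, from 250 before to 50 after the start site, were matched for 8 of the 10 members, E2F8 and FOXM1 being the others. The words searched were TTTCGCGC, TTTGGCGC and TTTCCCGC on either strand, and the capitals mark them. Each stretch runs 5′ to 3′ along the strand of the gene, from 130 bases before the start site to 30 after it. The stretch of E2F1 is chr20:33686356-33686515 on the minus strand, that of E2F2 is chr1:23531204-23531363 on the minus strand, that of E2F3 is chr6:20401749-20401908 on the plus strand, that of RBL1 is chr20:37095968-37096127 on the minus strand and that of E2F4 is chr16:67192025-67192184 on the plus strand.
E2F1: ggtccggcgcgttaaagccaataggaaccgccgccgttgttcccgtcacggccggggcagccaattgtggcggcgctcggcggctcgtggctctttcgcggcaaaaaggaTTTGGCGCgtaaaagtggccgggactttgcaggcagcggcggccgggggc
E2F2: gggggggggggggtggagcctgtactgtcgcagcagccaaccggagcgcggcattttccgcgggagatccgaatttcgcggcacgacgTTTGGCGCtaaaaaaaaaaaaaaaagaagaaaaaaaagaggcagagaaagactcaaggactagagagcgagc
E2F3: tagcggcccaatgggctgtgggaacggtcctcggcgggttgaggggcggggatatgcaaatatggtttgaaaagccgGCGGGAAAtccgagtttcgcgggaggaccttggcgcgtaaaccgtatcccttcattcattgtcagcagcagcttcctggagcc
RBL1: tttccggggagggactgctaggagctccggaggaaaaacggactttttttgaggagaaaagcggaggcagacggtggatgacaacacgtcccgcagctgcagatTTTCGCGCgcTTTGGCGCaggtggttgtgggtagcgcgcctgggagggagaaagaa
E2F4: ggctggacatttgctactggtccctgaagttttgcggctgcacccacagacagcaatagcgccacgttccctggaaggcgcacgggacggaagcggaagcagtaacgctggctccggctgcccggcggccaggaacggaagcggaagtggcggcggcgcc

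An E2F word was found in the promoters of 4 of the 8 matched members, E2F1, E2F2, E2F3 and RBL1. Counted by gene in the same way, 5.48% of the 11687 genes tested that had a promoter held one. Counted by promoter, it was 4 of the 10 listed for these members and 2.74% of all 35116. The word began 20 bases before the start site in E2F1, 42 before it in E2F2 and 53 before it in E2F3, where it lies in reverse. RBL1 held 2 words that do not overlap, at 26 and 16 bases before its start. E2F4, E2F7 and RBL2 held none in this window, and of these E2F7, whose sequence is not shown, was also called lower in siNONO. The RB1 window in the table belongs to a start site 172699 bases inside the gene, so it says nothing of the main RB1 promoter. With words of 7 letters, shortened by the first T, 5 of the 8 members and 21.0% of the genes tested had a match, or 11.0% of all promoters. The cell cycle homology region (CHR), a MuvB element searched as TTTGAA or TTCGAA on either strand, was found in E2F3 and RBL2, in 15.3% of the genes tested and in 16.4% of all promoters. A match is a run of letters, and binding was not measured here.

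The estimated counts summed to between 21765393 and 32659002 per library, and the members had between 300 and 4289 counts each. Levels within a gene are given in CPM, counts scaled to a common library size with TMM factors, as mean ± SD of 3 libraries per group. NONO, the target, had 502 ± 11.8 CPM in siControl and 95.1 ± 5.43 CPM in siNONO, or 18.9% of the siControl level by the fit. The epithelial markers EPCAM, CDH1, KRT8, KRT18 and KRT19 summed to between 2711 and 3007 TPM, a unit that is scaled for transcript length as well as depth. Of these 5, EPCAM and KRT19 were called higher in siNONO, with log2 fold changes of 0.32 and 0.14 (adjusted p = 3.52e-06 and 0.00731, edgeR), and the other 3 were not called. Of the markers of other cell types, PTPRC, CD3E and DCN had at most 2 counts in any library. PECAM1, the endothelial marker planned, was not matched by its symbol, so no endothelial marker was read. The collagen gene COL1A1 had between 16.2 and 19.0 TPM, with a log2 fold change of 0.02 (adjusted p = 0.79, edgeR), and COL3A1 had between 9 and 30 counts. Across all genes tested, 3985 were called lower in siNONO and 3939 higher, at an adjusted p of at most 0.05.

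In siNONO cells, 8 of the 10 members fell, while E2F4 did not pass the test. RBL2 rose slightly by the counts, a call that depended on the processing. Of all genes tested, 23.4% were called lower and 23.2% higher, or 46.6% in either direction. FOXM1 fell furthest, to 41.8% of siControl, and the other decreases ran from 58.3% of siControl in E2F2 to 78.1% in RB1. The median log2 fold change of the members was -0.52, against 0.00 for all genes tested. In CPM the groups did not overlap for 9 of the 10 members, all but E2F4, as was the case for 47.8% of all genes. These are bulk libraries, in which fewer cells in a phase of the cycle and less RNA per cell cannot be told apart.

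**Figure D1:**
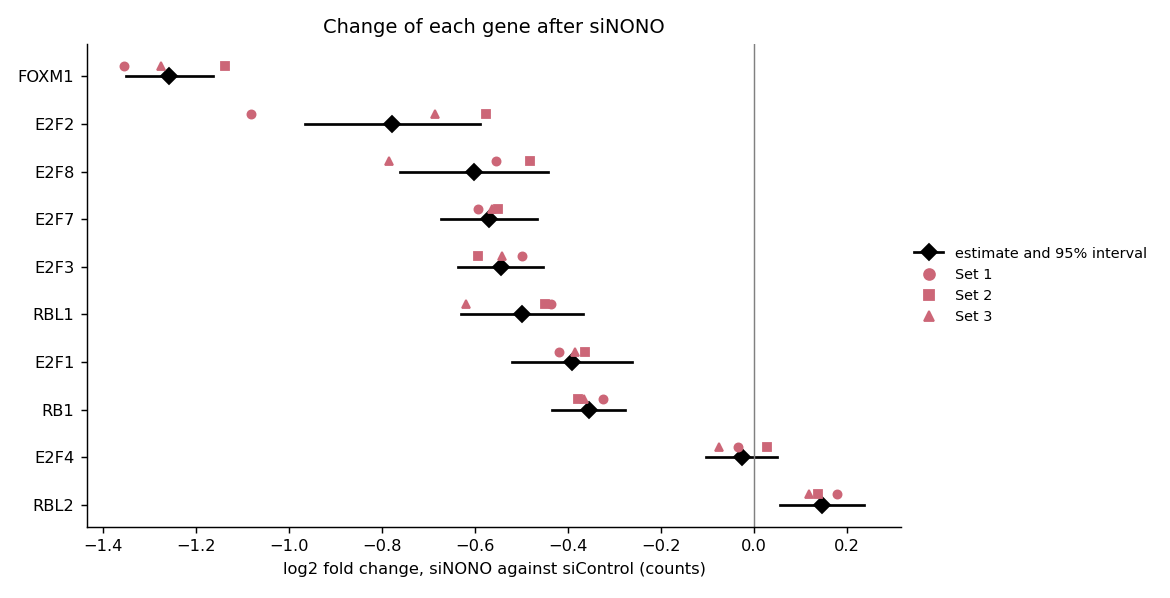
Log2 fold change of each member in siNONO against siControl, from the counts (x axis), with members on the y axis. Black diamonds and bars give the estimate and its 95% interval, and the pink symbols give the Sets. FOXM1 lies lowest at -1.26, and RBL2 is the single member whose interval lies above 0.

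FOXM1 (ENSG00000111206.13_6) lies on the minus strand of chromosome 12 of GRCh37, from 2966846 to 2986340. Its counts were 4289, 3552 and 3195 in the siControl libraries of Sets 1, 2 and 3, and 1455, 1639 and 1680 in those of siNONO. Scaled for library size, this was 130, 130 and 146 CPM with siControl and 50.9, 58.9 and 60.1 CPM with siNONO. Every siNONO library therefore lay far below every siControl library. The log2 fold change was -1.26 (95% interval -1.35 to -1.16, adjusted p = 3.62e-10 from edgeR's quasi-likelihood F-test, adjusted by Benjamini-Hochberg over all genes). By Set it was -1.35, -1.14 and -1.28. Of the 13340 genes whose log2 CPM averaged 1 or more, FOXM1 ranked 25 from the lowest log2 fold change.

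At its 3′ end, FOXM1 shares 782 of its 4919 exonic bases with ITFG2 on the opposite strand. The strand setting of the counting is not given in the sources used here, and the FOXM1 counts were fractional in all 6 libraries, which means that RSEM divided some reads among genes. ITFG2 had between 250 and 396 counts per library and a log2 fold change of -0.32 (adjusted p = 0.00572, edgeR). RHNO1, which overlaps the 5′ end of FOXM1 on the other strand without sharing exonic bases, had a log2 fold change of -0.43 (adjusted p = 0.000138, edgeR).

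The activators E2F1, E2F2 and E2F3 all fell. E2F1 (chromosome 20 from 32263283 to 32274191, minus strand) had 19.2, 21.6 and 23.7 CPM in siControl and 14.4, 16.8 and 18.2 CPM in siNONO, in the order of the Sets. The groups did not overlap, although the highest siNONO library came near the lowest siControl library. The log2 fold change of E2F1 was -0.39 (95% interval -0.52 to -0.26, adjusted p = 0.000148, edgeR), and it was -0.42, -0.36 and -0.38 in Sets 1, 2 and 3. E2F2 (chromosome 1 from 23832930 to 23857725, minus strand) had 22.3, 23.0 and 23.9 CPM in siControl and 10.5, 15.4 and 14.8 CPM in siNONO. The siNONO library of Set 1 was the lowest of the 3, and the change of E2F2 was the most uneven between Sets, at -1.08, -0.58 and -0.69. Its log2 fold change was -0.78 (95% interval -0.97 to -0.59, adjusted p = 1.08e-05, edgeR). E2F3 (chromosome 6 from 20402110 to 20493945, plus strand) had 65.7, 67.3 and 66.1 CPM in siControl and 46.5, 44.6 and 45.4 CPM in siNONO. Both groups of E2F3 were tight and well apart, with a log2 fold change of -0.55 (95% interval -0.64 to -0.45, adjusted p = 3.98e-07, edgeR).

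The atypical members fell to a similar degree. E2F7 (chromosome 12 from 77415028 to 77459349, minus strand) had 44.6, 44.4 and 43.5 CPM in siControl and 29.5, 30.3 and 29.4 CPM in siNONO. The spread within each group was small beside the difference between them, and the log2 fold change was -0.57 (95% interval -0.67 to -0.47, adjusted p = 8.4e-07, edgeR). E2F8 (chromosome 11 from 19245610 to 19263167, minus strand) had 18.8, 20.3 and 19.8 CPM in siControl and 12.8, 14.5 and 11.5 CPM in siNONO. It changed by -0.55, -0.48 and -0.78 in Sets 1, 2 and 3, all in one direction. The log2 fold change of E2F8 was -0.60 (95% interval -0.76 to -0.44, adjusted p = 2.24e-05, edgeR).

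E2F4, the repressor and the member with the highest TPM, had 103, 101 and 116 CPM in siControl and 100.4, 103 and 110 CPM in siNONO. The groups overlapped, and the Sets differed in direction, at -0.03, 0.03 and -0.07. The log2 fold change of E2F4 was -0.03 (adjusted p = 0.562, edgeR), and its 95% interval ran from -0.10 to 0.05. E2F4 (chromosome 16 from 67226058 to 67232821, plus strand) overlaps no other annotated gene. On the TPM scale it averaged 92.8 ± 5.80 in siControl and 84.3 ± 2.42 in siNONO (SD, n = 3 per group). The groups did not overlap on that scale, where the mean log2 ratio of E2F4 was -0.14 and the median over all genes tested was -0.09.

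Of the pocket proteins, RB1 and RBL1 fell. RB1 (chromosome 13 from 48877880 to 49173572, plus strand) had 94.4, 92.6 and 79.7 CPM in siControl and 75.3, 71.2 and 61.8 CPM in siNONO. Set 3 was the lowest in both groups, and RB1 changed by -0.33, -0.38 and -0.37 within the Sets. Its log2 fold change was -0.36 (95% interval -0.43 to -0.28, adjusted p = 4.79e-06, edgeR). RBL1 (chromosome 20 from 35624752 to 35724400, minus strand) had 24.8, 27.9 and 26.5 CPM in siControl and 18.3, 20.4 and 17.2 CPM in siNONO. The groups did not overlap, and the log2 fold change of RBL1 was -0.50 (95% interval -0.63 to -0.37, adjusted p = 2.14e-05, edgeR).

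RBL2, by contrast, was slightly higher in siNONO by the counts. RBL2 (chromosome 16 from 53467889 to 53525560, plus strand) had 51.1, 49.2 and 47.7 CPM in siControl and 57.9, 54.0 and 51.8 CPM in siNONO. The groups lay close together without overlapping, and each Set showed a rise, by 0.18, 0.14 and 0.12. The log2 fold change was 0.15 (95% interval 0.05 to 0.24, adjusted p = 0.0122, edgeR). The call was lost without the Set as a block (adjusted p = 0.0912, edgeR), with DESeq2 (adjusted p = 0.117) and when any of 3 libraries was left out (adjusted p from 0.0533 to 0.122, edgeR). Those were the siControl library of Set 1 and the siNONO libraries of Sets 1 and 2. With the Set as a block, leaving out either library of a Set takes out its pair, so these are not 3 separate checks. For Set 2 the call held without the siControl library (adjusted p = 0.0378, edgeR). Its counts were fractional in all 6 libraries, and RBL2 shares 609 of its 8110 exonic bases with AKTIP and 721 with ENSG00000279344 on the opposite strand. AKTIP had between 424 and 687 counts per library and ENSG00000279344 at most 8.

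In TPM, RBL2 was not higher, at 21.4 ± 1.20 in siControl and 20.4 ± 1.17 in siNONO (SD, n = 3 per group), and these groups overlapped. RSEM gives each gene a transcript length weighted by the abundance of its isoforms, and TPM divides by it. For RBL2 this length was 3419, 3422 and 3540 bases in siControl and 3787, 3823 and 3617 bases in siNONO, so that every siNONO library had the longer value. The length of E2F2 also did not overlap between groups, with 4754, 4671 and 4457 bases in siControl and 4809, 4762 and 4989 bases in siNONO. The other 8 members either overlapped or, as with E2F1 at 2690 bases, had a single length. Of the 14129 genes tested whose length varied, 13.6% had groups that did not overlap. Which isoforms changed was not tested here.

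**Figure D2:**
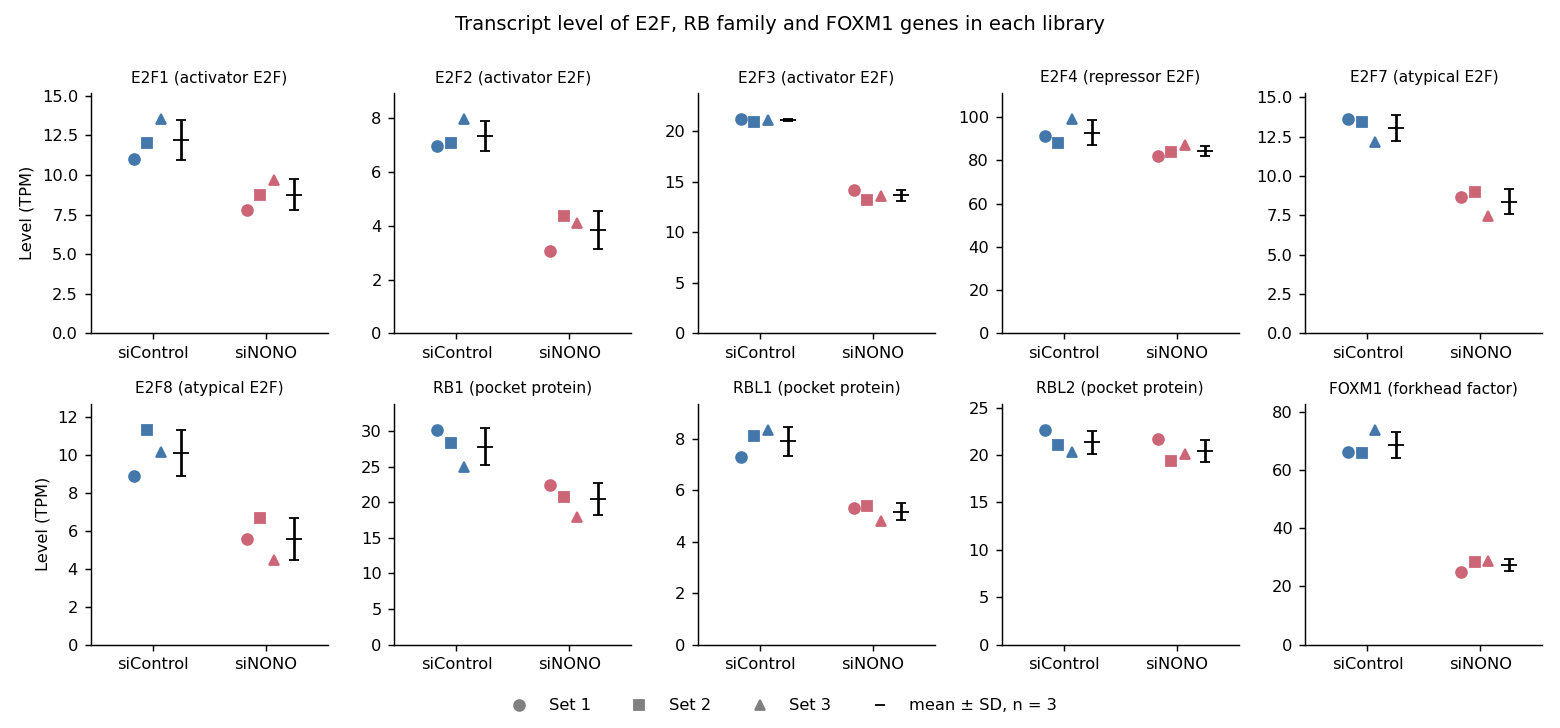
Level of each member in TPM (y axis, from 0) in the siControl (blue) and siNONO (pink) libraries, with symbols for Sets 1 to 3 and black bars for the mean ± SD (n = 3). The groups stand apart for FOXM1 (66.2, 65.9 and 73.7 TPM against 24.9, 28.2 and 28.7 TPM), whereas those of RBL2 overlap.

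Levels were compared between members in TPM only, which is scaled for length. In siControl, E2F4 was highest at 92.8 ± 5.80 TPM (SD, n = 3), followed by FOXM1 at 68.6 ± 4.43, RB1 at 27.9 ± 2.63 and RBL2 at 21.4 ± 1.20. E2F3 at 21.1 ± 0.143 TPM was not separate from RBL2, and E2F7, E2F1 and E2F8, at 13.1 ± 0.814, 12.2 ± 1.28 and 10.1 ± 1.23, overlapped each with the next. RBL1 at 7.91 ± 0.562 and E2F2 at 7.36 ± 0.552 TPM were lowest and overlapped as well. In siNONO the order kept E2F4 first at 84.3 ± 2.42 TPM and E2F2 last at 3.85 ± 0.699 TPM. FOXM1, at 27.3 ± 2.06 TPM, now lay near RB1 at 20.5 ± 2.27, and RB1 could no longer be separated from RBL2.

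The make-up of the family shifted with these changes. The summed TPM of the activators was 39.2, 40.0 and 42.7 in the siControl libraries and 25.01, 26.3 and 27.4 in the siNONO libraries. Per unit of E2F4, the activators fell from 0.438 ± 0.0147 to 0.311 ± 0.00573 (SD, n = 3 per group), and all siNONO libraries lay below all siControl libraries. E2F3 supplied 52.0 ± 2.31% of the activator TPM in siControl and 52.1 ± 4.03% in siNONO. The atypical pair summed to 23.2 ± 1.36 TPM in siControl and 13.9 ± 1.90 TPM in siNONO.

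Among the pocket genes, the share of RBL2 was 37.7, 36.7 and 37.8% in siControl and 43.8, 42.5 and 46.9% in siNONO. The share of RB1 was 50.2, 49.2 and 46.6% in siControl and 45.5, 45.7 and 41.9% in siNONO. RBL2 and RB1 thus stood near equal in siNONO, with a ratio of 1.00 ± 0.101, against 0.769 ± 0.0372 in siControl (SD, n = 3 per group). FOXM1 fell relative to the activators too, from 1.69 ± 0.0406 to 1.04 ± 0.0397 of their summed TPM. These ratios are within a library and were not tested.

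**Figure D3:**
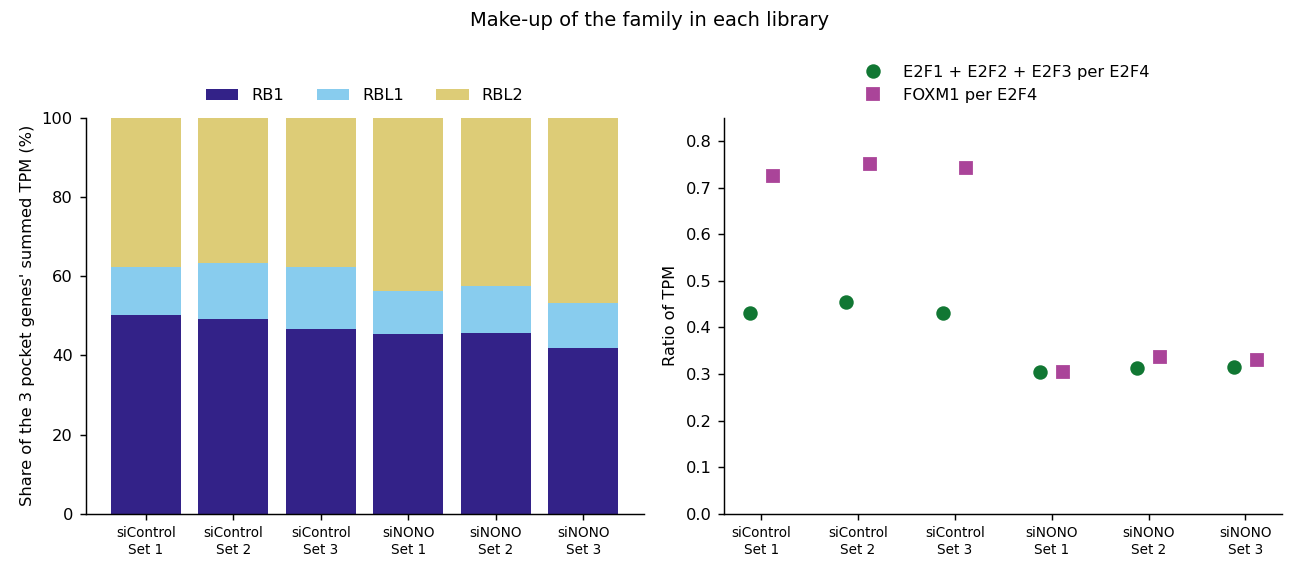
Left, the share of RB1, RBL1 and RBL2 in their summed TPM (y axis, percent) in each library. Right, the ratio of TPM of the activators and of FOXM1 to E2F4 in each library, from 0. The RBL2 share is larger in every siNONO library, and FOXM1 per E2F4 drops from 0.739 to 0.323 on average.

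The partners of the family changed in both directions. Of 9 genes for the DP partners, E2F6 and the MuvB core with MYBL2, 4 were called lower and 3 higher, and the list median was 0.02. The shares over all genes tested were 23.4% lower and 23.2% higher. MYBL2 (B-Myb), which joins MuvB in S phase, had 89.8 ± 3.39 CPM in siControl and 57.0 ± 3.33 CPM in siNONO, and LIN54, the DNA-binding subunit of MuvB, fell from 34.5 ± 3.21 to 23.2 ± 2.36 CPM. LIN9, another MuvB subunit, had a log2 fold change of -0.41 (adjusted p = 0.000937, edgeR). The genes of the DP partners changed in opposite directions. TFDP1 fell from 197 ± 5.10 to 151 ± 2.69 CPM and TFDP2 rose from 73.1 ± 1.83 to 99.3 ± 3.09 CPM. LIN52 and RBBP4 rose by 0.26 and 0.19 on the log2 scale by the counts (adjusted p = 0.0123 and 0.00263, edgeR). By Set, RBBP4 changed by 0.12, 0.11 and 0.35. In TPM the groups overlapped for both genes, and RBBP4 ran from 186 to 219 in siControl and from 194 to 209 in siNONO. E2F6 (adjusted p = 0.794) and LIN37 (adjusted p = 0.0596, edgeR) did not pass the test.

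Upstream of RB1, 15 of 16 cyclin, kinase and inhibitor genes were tested, of which 10 were called lower and 3 higher, with a median of -0.19. Of all genes tested, 23.4% were called lower and 23.2% higher. The count of lower genes was 7 with DESeq2 and also without the siControl library of Set 1. CDKN1A, which encodes the kinase inhibitor p21, rose from 140 ± 8.91 to 386 ± 21.9 CPM, a log2 fold change of 1.46 (adjusted p = 4.96e-12, edgeR). It had 4387, 3742 and 3292 counts in siControl and 10634, 10418 and 11492 counts in siNONO, with no overlap. The cyclin genes CCNE1 and CCND1 rose as well, by 0.49 and 0.44 on the log2 scale (adjusted p = 4.54e-06 and 9.01e-08, edgeR). CCNE2, the other cyclin E gene, fell from 10.3 ± 1.41 to 4.83 ± 0.174 CPM, so that the pair of cyclin E genes moved in opposite directions. CDK6, a kinase that phosphorylates RB1, fell from 150 ± 5.35 to 75.3 ± 6.94 CPM. CDC25A, a phosphatase that activates cyclin-dependent kinases, fell from 45.5 ± 2.27 to 25.1 ± 1.32 CPM. The other inhibitor genes did not rise with CDKN1A. CDKN1C, CDKN2B, CDKN2C and CDKN2D were called lower, at -0.31, -0.51, -0.74 and -0.49 (adjusted p = 0.00329, 0.000632, 0.000135 and 0.0104, edgeR). CDKN1B and CDKN2A were not called, and CCND2 had at most 3 counts in any library.

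Downstream, all 29 replication genes listed as E2F targets were called lower in siNONO, with a median log2 fold change of -0.52. Of all genes tested, 23.4% were called lower. The cyclin E genes CCNE1, which rose, and CCNE2, which fell, were counted in the upstream list and not among these 29. The 29 genes ran from -0.99 for the exonuclease EXO1 to -0.18 for the histone mRNA binding protein SLBP. MCM10, a replication initiation factor, fell from 48.9 ± 1.34 to 25.6 ± 1.17 CPM, and RRM2, a subunit of ribonucleotide reductase, from 259 ± 21.3 to 139 ± 6.13 CPM. By Set the list medians were -0.49, -0.55 and -0.51. The count was 28 of 29 with DESeq2 and when the siControl or siNONO library of Set 1 or Set 2 was left out. All 28 genes listed as G2/M targets of FOXM1 and MuvB were called lower too, with a median of -0.65 and a range from -1.08 for HMMR to -0.22 for CDC20. HMMR, a spindle protein, fell from 84.2 ± 11.8 to 39.7 ± 2.02 CPM, ECT2, which directs cytokinesis, from 155 ± 12.5 to 75.7 ± 8.90 CPM, and CCNA2, which encodes cyclin A, from 112 ± 4.48 to 54.9 ± 3.66 CPM. The lowest member of the G2/M list changed less than FOXM1 itself, at -1.08 against -1.26. Both lists were drawn up with earlier results of these data known and are given here as descriptions.

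The genes whose profiles were closest to those of E2F1, FOXM1 and RB1 were found by the root mean square difference of centred log2 CPM over the 6 libraries. For FOXM1 these were H2AX, the histone variant marked at DNA breaks, at a difference of 0.0346, FYCO1 at 0.0684 and SPC25, a subunit of the NDC80 kinetochore complex, at 0.0842. For E2F1 they were ENSG00000276805 at 0.0312, SPC24, another subunit of the same complex, at 0.0406, and SRGAP2C at 0.0455. For RB1 they were B3GNT5 at 0.0219, PHF14 at 0.0250 and ZNF195 at 0.0275. SRGAP2C has near-identical copies in the genome, so its counts are uncertain. The log2 fold changes of the FOXM1 neighbours ran from -1.29 to -1.20, close to that of FOXM1, since the profiles include the difference between the groups.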

How the data were processed

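RNA-seq was available for 3 siControl and 3 siNONO libraries of HCT116 cells. Per the study's methods, sickle was used for trimming and STAR for alignment to the GENCODE version 34 transcriptome of GRCh37, and RSEM (version 1.3.1) for quantification. The deposited expected counts are RSEM's estimated counts per gene, without normalization. TPM, also deposited, is scaled for transcript length and depth. RSEM's weighted transcript lengths were read as well.

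Counts were rounded and tested with edgeR (version 4.0.16, legacy quasi-likelihood form, filterByExpr, TMM), with the Set as a block. The study's methods name a batch term in edgeR without saying what the batch was, and taking it to be the Set is an assumption. P-values were adjusted over 17000 genes. The Sets were taken as pairs from their labels. Deviations from the group means correlated across genes at 0.200, 0.112 and 0.310 within Sets 1, 2 and 3. Across Sets 1 and 2 the values were 0.0962 and 0.0943, so the match of Set 2 hardly stood out. Between Set 3 and the other Sets they ran from -0.238 to -0.154. No pair of replicates agreed within sampling noise. Symbols and coordinates of genes were those of GENCODE version 44 on GRCh37. A planned comparison of protein sequences was not run. The code of the fit was run on simulated counts in which few genes changed. That run is not a check of these data, where 46.6% of the genes tested were called.

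The members and lists were chosen with earlier results of these data known. Named genes were the members, NONO, the 3 lowest and 3 highest called genes of each pathway list with 1 direction in all Sets, the 3 nearest profiles of E2F1, FOXM1 and RB1, and genes that overlap a member. TFDP1, SLBP, CDC20, CDKN1B, CDKN1C, CDKN2A, CDKN2B, CDKN2C, CDKN2D, CCND2, E2F6 and LIN37 were named after their values were seen. Alternatives were DESeq2 (version 1.42.0), limma (version 3.58.1) on log2(TPM + 1), other scalings, filters and dispersions, no block, and each library left out.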

Additional observations from a re-analysis of the deposited data

How the results depend on the processing

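Over 15 alternatives, FOXM1, E2F1, E2F2, E2F3, E2F7, E2F8, RB1 and RBL1 were called lower and E2F4 was not called in each. E2F4 came nearest to a call on log2(TPM + 1), where its log2 fold change was -0.14 (adjusted p = 0.0514, limma). FOXM1's log2 fold change ran from -1.31 to -1.20 and that of E2F2 from -0.88 to -0.63. RBL2 depended on the processing. Its log2 fold change of 0.15 (adjusted p = 0.0122, edgeR) was 0.14 with no replicate block (adjusted p = 0.0912, edgeR) and 0.15 with DESeq2 (adjusted p = 0.117), and it reversed to -0.0636 with limma on log2(TPM + 1) (adjusted p = 0.446), a scale that divides by the longer RBL2 transcript length and whose median over all genes was -0.07. With 1 library left out it ran from 0.13 to 0.16, called in 3 of 6 such fits. With the Set as a block, the partner of a library left out no longer informs the difference. These 6 fits thus amount to leaving out each Set in turn. The count of members higher was accordingly 0 with no replicate block, with DESeq2 and with limma, and from 0 to 1 with a library left out. The block changed no other call of a member. Of the E2F partners and MuvB core, 1 in place of 3 was called higher with limma on log2(TPM + 1), and from 2 to 4 under the other alternatives. The RB kinases and inhibitors called lower ranged from 7 to 11 (10 as reported) and the G1/S targets from 28 to 29, while the 28 G2/M targets were called lower in each. Over all genes, 7924 were called, against 5227 with DESeq2 and 5257 with limma on log2(TPM + 1), of which 31.3% were higher against 49.7%. The cause was not tested. No replicate block gave 6164. The members had at least 300 counts in every library, and the standard error of the log2 fold change ran from 0.0350 for E2F4 to 0.0865 for E2F2, which had the 300.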

Other observations

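Promoter words were also counted in the related lists, as a description. Of 25 E2F target genes of the G1/S list with a RefSeq promoter, 15 held an E2F word of 8 letters, and 4 held a CHR word. Of 23 genes of the G2/M list with a promoter, 2 held an E2F word and 17 held a CHR word. Both lists are known targets of these elements, so the counts describe the lists and say nothing of NONO. Among all genes tested, 641 had an E2F word in a promoter, of which 36.2% were called lower in siNONO and 22.3% higher. Of the 11046 with a promoter but no such word, 25.7% were lower and 26.2% higher. The medians were -0.05 and 0.01 on the log2 scale. For CHR words, 31.7% of 1792 genes were lower, against 25.3% of 9895 without one.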
